A study of Homo sapiens with 9 samples.

Results

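SF3B1 binding sites were examined in 8 human genes that encode core factors of nonsense-mediated decay: UPF1, UPF2, UPF3A, UPF3B, SMG5, SMG6, SMG8 and SMG9. A site belonged to a gene when its centre lay within the RefSeq span of that gene on GRCh38.p14, on the strand of the gene. Of 96852 listed sites, 111 (0.115%) met this rule. They lay in 7 of the 8 genes, and SMG8 had none. Strands were taken from the RefSeq promoter table, which held 7 of the 8 genes. No choice of strand matters for SMG8, because neither strand carried a site within its span.

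The sites came from iCLIP of SF3B1 in K562 cells, a human leukaemia line in wide use. The labels give its source as chronic lymphoid leukemia derived, although the line is usually described as from chronic myeloid leukaemia. In iCLIP, ultraviolet light crosslinks a protein to the RNA it touches in cells, and the crosslinked nucleotides are read out by sequencing after immunoprecipitation. The list is attached to 3 libraries (replicates 2, 3 and 4), which were prepared with a monoclonal SF3B1 antibody from ultraviolet-crosslinked K562 cells of genotype SF3B1 wt/wt obtained from Horizon Discovery. The series also holds 2 SF3B1 libraries from cells of genotype SF3B1 K700E/wt and 4 U2AF2 libraries from SF3B1 wt/wt cells of another supplier, which were not analysed here. According to its header, the list keeps sites reproduced in all replicates of either condition, so the genotype in which a single site was found cannot be told. The list gives positions of sites 5 nt wide, with a score of 0 in each of its 96852 rows, and no read number or value per replicate. The depth is therefore unknown, no spread between cultures can be given, and no p-value is reported. Intervals below cover counting error only, and they treat sites as independent although sites cluster.

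Nonsense-mediated decay removes mRNAs on which a ribosome terminates too early, often upstream of an exon junction complex. UPF1, an RNA helicase, is joined by UPF2 and UPF3 proteins, is phosphorylated by the kinase SMG1 under the control of SMG8 and SMG9, and then attracts SMG5 and SMG6, which lead to destruction of the mRNA. Several of the genes are themselves known to be kept in check by the pathway. SF3B1 is part of the U2 small nuclear ribonucleoprotein, which recognises the branch point of introns, and mutant SF3B1 is known for using cryptic 3′ splice sites whose products are often substrates of this decay pathway.

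The sequence of the 5′ end of the UPF3A sites is shown because it was the only place where the binding sites of these genes fell within the available sequence. RefSeq promoter windows (250 bases before to 50 bases after an annotated start) existed for 7 of the 8 genes, 14 windows in all, and 1 of them contained sites. That window belongs to a UPF3A start annotated at position 114282395 of chromosome 13, which is 0.794 kb inside the gene span. Its sites 1, 2 and 3 lie 177, 149 and 135 nt before that start. The run below is chr13:114282190-114282280 on the plus strand of GRCh38.p14, from RefSeq, with the 3 sites of 5 nt in capitals.
UPF3A sites 1 to 3: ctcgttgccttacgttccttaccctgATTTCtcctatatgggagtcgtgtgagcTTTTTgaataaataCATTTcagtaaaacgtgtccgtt

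The 3 sites were rich in T (U in the RNA), which made up 11 of their 15 bases. The first holds 3 T, the second is made of T alone, and the third holds 3 T and abuts the bases CAG. The hexamer TTTCAG, searched on both strands, overlaps the third site at positions 114282260 to 114282265 and occurs once more in the window, at 114282346 to 114282351. On the gene strand it was present in 10.2% of all 35116 promoter windows. The run TTTTT, which is the second site itself, was present on the gene strand in 24.9% of windows, and CTAAC, a form of the branch point sequence, in 11.1%. The UPF3A window has CTAAC at positions 114282356 to 114282360, after the 3 sites, and no CTGAC. Sites in promoter windows were rare in the whole list. Of the 35116 windows, 203 (0.578%) held a site and 24 (0.0683%) held at least 3, as the UPF3A window did. Over the 280 different sites in such windows, T made up 57.1% of the site bases, against 24.8% of all bases in those windows. Crosslink sites of other proteins were not compared, so whether SF3B1 itself prefers T was not tested. None of the 24 windows of 18 other decay pathway genes held a site. Most of each window lies before its start, so at an outermost start it lies mostly outside the span of its gene. The UPF3A window lies wholly inside the gene span, after the starts at 114281601 and 114281911. Windows inside a gene were not counted apart. These shares therefore do not show whether sites in a window such as that of UPF3A are unusual. Exons were not used here, so whether these UPF3A sites lie in an intron or an exon is not stated.

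The number of sites differed widely among the 8 genes, and it did not follow gene length. UPF3A had 28 sites, UPF1 25, SMG5 25, UPF2 17, UPF3B 8, SMG9 5 and SMG6 3. UPF3A, UPF1 and SMG5, 3 of the 8 genes, accounted for 70.3% of the 111 sites. Of the 8 genes 7 carried a site, against 37.9% of 20056 protein-coding genes. At least 5 sites were found in 6 of 8, against 23.1%, and at least 20 sites in 3 of 8, against 7.2%. The median over the 8 genes was 12.5 sites, the median over all protein-coding genes was 0, and the median over the 7608 protein-coding genes with a site was 7. Transcript abundance was not measured here, so the counts are not corrected for it, and the part of expression in them was not tested.

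**Figure D1:**
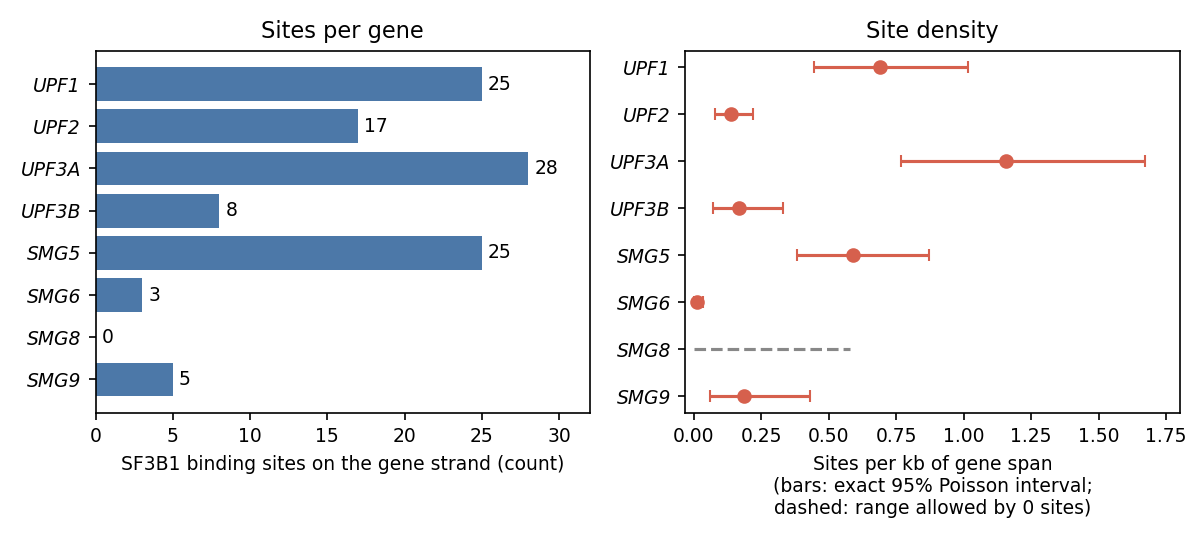
SF3B1 binding sites in the 8 genes, as a count on the gene strand (left) and per kb of gene span (right, with exact 95% Poisson intervals for counting error). The dashed line for SMG8 runs to 0.577 sites per kb, a limit of 3 counts for 0 sites. That limit is lower than an exact 95% interval would give. UPF3A, UPF1 and SMG5 stand at 25 to 28 sites and have the highest densities, and SMG6 lies near 0.

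Per kb of gene span the order changed little at the top. UPF3A had 1.16 sites per kb (95% Poisson interval 0.768 to 1.67), UPF1 had 0.689 (0.446 to 1.02) and SMG5 had 0.591 (0.383 to 0.873). The intervals of these 3 genes overlap one another. SMG9 had 0.185 sites per kb (0.0602 to 0.432), UPF3B 0.168 (0.0725 to 0.331) and UPF2 0.138 (0.0804 to 0.221), and these neighbours in the order do not differ beyond their intervals. SMG6 had 0.0123 sites per kb (0.00254 to 0.0359), below the interval of every other gene with a site. Of the protein-coding genes, 96.2% had a lower density than UPF3A, 92.9% a lower one than UPF1 and 91.6% a lower one than SMG5. For SMG6 the share was 63.6%. Genes without a site count as lower in these shares. Of the 7608 protein-coding genes with a site, SMG6 ranked 7300 by density, near the low end.

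UPF1, the helicase at the centre of the pathway, is transcribed from the plus strand of chromosome 19 (18831959 to 18868230). Its first 15.9 kb, 43.8% of the 36.3 kb span, carried no site. All 25 sites followed within the next 17.4 kb and fell into groups. Sites 1 to 7 lie 15.9 to 18.7 kb from the gene start, sites 8 to 14 occupy only 0.865 kb (chr19:18852372-18853241), sites 15 to 18 cover 0.921 kb, and the last 7 extend to 33.3 kb. Its largest clusters held 3 sites, 1 of them at chr19:18853186-18853241. Among protein-coding genes, 1000 had more sites than UPF1. In its class of similar length (35.3 to 52.2 kb), the median among genes carrying sites was 8, and 91.4% of all 2006 genes in the class had fewer sites than UPF1. No other annotated gene overlaps the UPF1 span, so its sites have a single assignment.

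UPF2, the scaffold that links UPF1 to the UPF3 proteins, is transcribed from the minus strand of chromosome 10 (11920022 to 12043170). Its 17 sites were spread over a span of 123.1 kb, with the first one 38.4 kb from the gene start. A stretch of 24.8 kb in the 3′ part, chr10:11942703-11967512, held 14 of the 17 sites. Within it, 4 sites formed a cluster of 45 nt at chr10:11952258-11952302, made of a pair 7 nt apart and a pair 6 nt apart with 27 nt between their inner members. A pair 178 nt apart and a pair 177 nt apart followed downstream. The last site lay 1.33 kb before the gene end. UPF2 had fewer sites than UPF1 in a longer gene, 0.138 against 0.689 per kb, a ratio of 4.99 for UPF1 over UPF2, and the 2 intervals do not overlap.

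UPF3A and UPF3B encode paralogous proteins that bind UPF2, and UPF3B is the form known to connect strongly to the exon junction complex. UPF3A lies on the plus strand of chromosome 13 (114281601 to 114305817, 24.2 kb), and UPF3B on the minus strand of chromosome X (119805311 to 119852963, 47.7 kb). UPF3A had 28 sites and UPF3B had 8 in a longer gene. The density ratio was 6.89 for UPF3A over UPF3B, and their intervals do not overlap. Both depend on the spans used, since the last 29.7 kb of the UPF3B span (62.4%) carried no site. The ratio of site counts alone was 3.5. How much of the UPF3B span is transcribed in K562 cells was not examined. Counting clusters of sites, linked when at most 60 nt apart, in place of single sites gave 15 against 6 and a density ratio of 4.92, an alternative chosen after seeing the data. In the class of genes with a length of 24.1 to 35.3 kb, 103 of 2006 genes had more sites than UPF3A.

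In both paralogs the first site lay early in the annotated span. Measured from the outermost annotated start, the first UPF3A site lay at 0.617 kb and the first UPF3B site at 0.687 kb. RefSeq gives further UPF3A starts 0.31 and 0.794 kb inside the span, and 3 of the 28 sites lie before the latter. Which start K562 cells use was not measured. In UPF3A, 22 of 28 sites (78.6%) fell in the first 25% of the span, and in UPF3B 4 of 8 did (50%), whereas the other members with a site had 0 there. Over the 4630 protein-coding genes that had 5 sites or more, the median share in the first 25% was 2.13%. In these genes, 97.0% had a lower share than UPF3A and 91.0% a lower share than UPF3B. The first site came earlier along the gene, as a share of its length, in 8.7% of genes than in UPF3A and in 5.29% than in UPF3B.

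Within UPF3A, 12 sites stood between 0.617 and 2.31 kb from the gene start and 10 between 4.39 and 5.69 kb. The first group begins with the T-rich sites printed above and goes on with 6 sites in 57 nt at chr13:114282775-114282831, the largest cluster in any of the 8 genes. The second group contains 4 sites in 49 nt at chr13:114286461-114286509 and 3 sites in 36 nt at chr13:114287262-114287297. A further 4 sites lay 9.83 to 10.2 kb from the start, and the rest of the gene carried single sites at 17.2 kb and at 23.1 kb. The 26th site also falls in LOC124903222, a long non-coding RNA gene annotated on the same strand, so its assignment is uncertain. UPF3B had 4 sites between 0.687 and 1.31 kb and 4 between 12.2 and 17.9 kb, and the remaining 29.7 kb (62.4% of the span) had none.

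**Figure D2:**
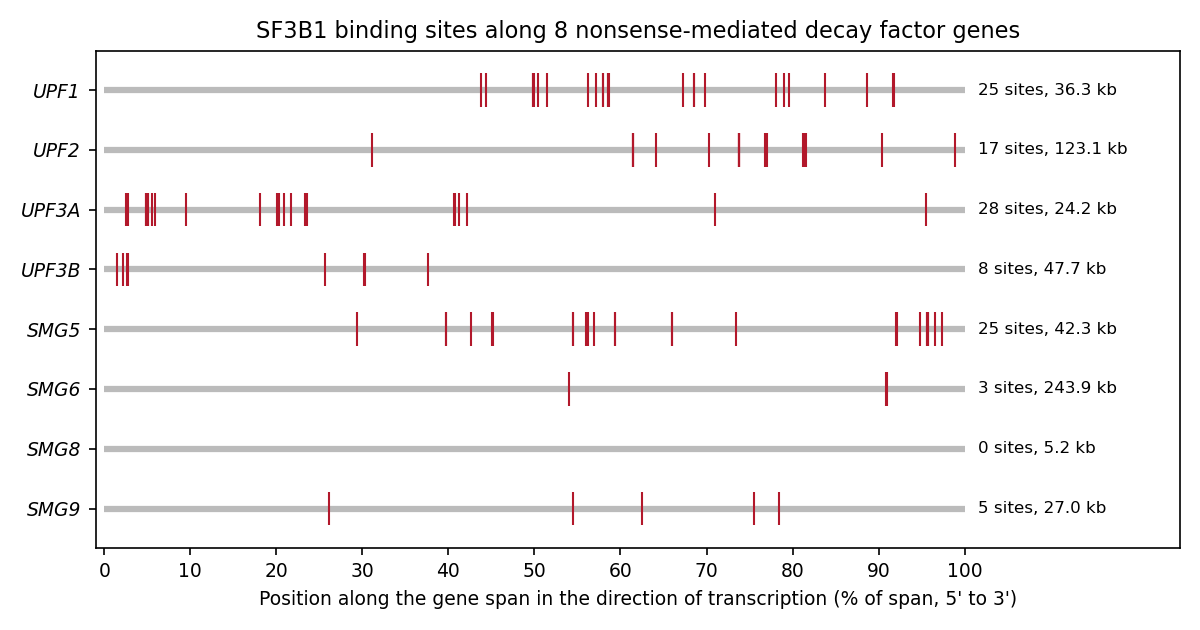
Position of each SF3B1 binding site (red tick) along the span of the 8 genes, as a percentage of the span from the 5′ to the 3′ end, with the number of sites and the length at the right. Ticks crowd at the left in UPF3A and UPF3B, whereas UPF1, UPF2, SMG5 and SMG9 have no tick before 26.1%, and SMG6 none before 54.0%.

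SMG5 and SMG6 act after UPF1 is phosphorylated. SMG5 is an adaptor that binds phosphorylated UPF1, and SMG6 is the endonuclease that cuts the target near the stop codon. SMG5 lies on the minus strand of chromosome 1 (156249224 to 156291516, 42.3 kb) and had 25 sites, as many as UPF1. The first one lay 12.4 kb from the outermost start. RefSeq gives a second SMG5 start 8.69 kb further in, at position 156282825, and all 25 sites lay downstream of it, the nearest at 3.74 kb. At the 3′ end, 9 sites lay within 2.26 kb at chr1:156250350-156252612, and these 9 also fell in the last 10% of the gene. They included 4 sites in 43 nt at chr1:156251022-156251064. The 5′ part of SMG5 overlaps TMEM79 on the opposite strand over 8.59 kb. One site on the plus strand fell there, at a position inside TMEM79, and was not counted for SMG5.

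SMG6 was the longest of the genes and nearly empty. It lies on the minus strand of chromosome 17 (2059839 to 2303785, 243.9 kb) and had 3 sites. One was centred at 2172145, and the other two at 2082023 and 2081986, 37 nt apart. The first 131.6 kb of the span had no site. RefSeq lists 4 SMG6 starts, and the innermost, at position 2088761, lies 6.74 kb upstream of the closely spaced sites. Among genes of at least 152 kb, the class of SMG6, 36.5% had a site, and those had a median of 8 sites. SMG6 had more sites than 71.7% of the 2006 genes in that class, most of which had none, and more than 164 of the 732 that had a site. The density ratio of SMG5 over SMG6 was 48.1, and of UPF3A over SMG6 it was 94.0. Both ratios rest on 3 SMG6 sites, whose density has an interval of 0.00254 to 0.0359 per kb, so their size is imprecise. They also depend on the span used, which runs from the outermost start. Of the 3 sites, 2 lie downstream of the innermost start, and which SMG6 start K562 cells use was not measured. SMG6 overlaps 7 other annotated genes, among them HIC1, SRR and SMG6-AS1, and no site lay in any of these overlaps.

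SMG8 and SMG9 form a complex with the kinase SMG1 and restrain its activity. SMG9 lies on the minus strand of chromosome 19 (43727983 to 43754962, 27.0 kb) and had 5 sites, centred at 43747912, 43740275, 43738086, 43734575 and 43733788. These were all isolated, since the closest pair was 787 nt apart. SMG8, on chromosome 17 (59210035 to 59215230), is the shortest of the genes at 5.20 kb and had 0 sites, which allows up to 0.577 sites per kb by a limit of 3 counts. That limit is above the densities of UPF2, UPF3B, SMG6 and SMG9, so a lower density than in those genes was not detectable. It is below the densities of UPF1 (0.689) and SMG5 (0.591) but within their intervals, and an exact 95% limit would be higher. A lower density in SMG8 than in UPF1 or SMG5 was therefore not shown either. Of the 2006 genes of 3.05 to 6.41 kb, the class of SMG8, 23.1% had a site.

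**Figure D3:**
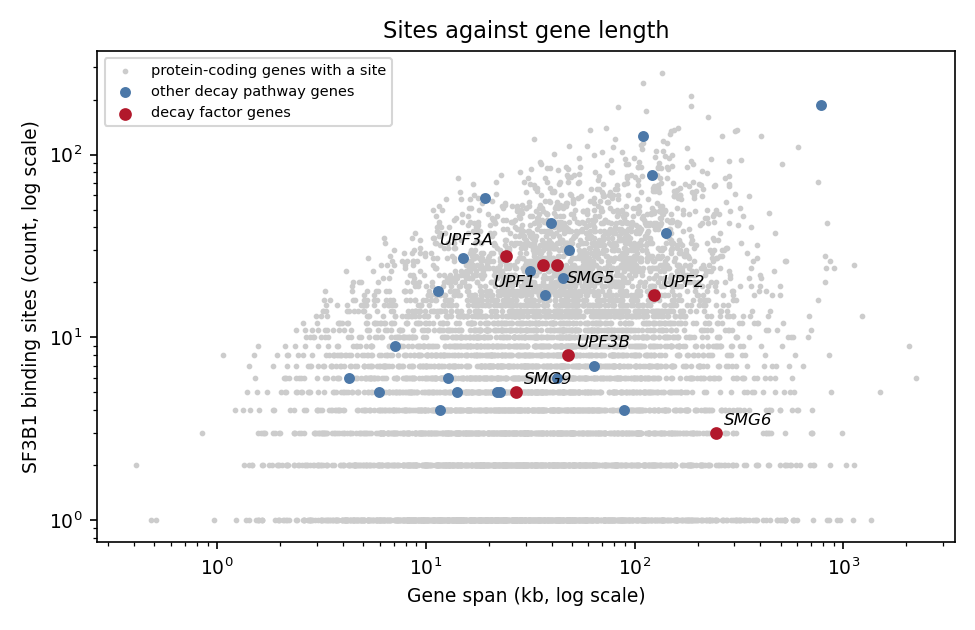
Number of SF3B1 binding sites against gene span for protein-coding genes with a site (grey), other decay pathway genes (blue) and the decay factor genes with a site (red), on log axes. SMG6, with 3 sites in 243.9 kb, lies low among the plotted genes of its length, which leave out those without a site, while UPF3A, UPF1 and SMG5 lie high among theirs.

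Close neighbours were not more frequent in these genes than in protein-coding genes at large. Neighbouring sites on the same gene were a median of 277 nt apart, and 34.6% of 104 neighbour distances were at most 60 nt, against 157 nt and 39.7% over all protein-coding genes. Linking sites at most 60 nt apart gave 75 clusters, of which 54 held a single site, 12 held 2 and 9 held 3 or more. Single sites thus made up 72.0% of clusters, compared with 63.2% over all protein-coding genes. Distances of 5 to 12 nt made up 15.4% of neighbour distances here and 17.2% over all genes.

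A distance of 25 to 45 nt separated 31 pairs of sites, whereas 3 pairs were separated by 46 to 66 nt, a band of the same width. The nearer span held 91.2% of these 34 pairs (95% Wilson interval 77.0% to 97.0%), and 78.2% over all protein-coding genes. A peak of distances in this range is a known feature of the whole list. UPF3A contributed 12 of the near pairs, UPF2 6, SMG5 6, UPF1 4, UPF3B 2 and SMG6 1, while SMG9 had none. Without UPF3A there were 19 near pairs and 1 pair in the farther span. Pairs share sites where a cluster has more than 2, as in UPF2, where 4 sites give 4 of the 6 pairs. Simple examples with only 2 sites were found in UPF1 (34 nt), UPF3B (35 and 44 nt), SMG5 (27, 38 and 40 nt), UPF3A (43 nt) and SMG6 (37 nt).

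Longer distances of 140 to 180 nt, about the length of an exon, occurred 11 times: 7 in UPF3A, 2 in UPF1 and 2 in UPF2. The UPF1 and UPF2 pairs all lay between 177 and 180 nt. Those in UPF3A ranged from 147 to 178 nt. SMG5 had 25 sites, as many as UPF1, and 0 pairs in this span. Of the 7 UPF3A pairs, 6 share the sites centred at 114282960 and 114286658. The equally wide band of 60 to 100 nt held 2 pairs over the 8 genes, a ratio of 5.5 from few sites, and over all protein-coding genes 12099 pairs of the longer distance stood against 7026, a ratio of 1.72.

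Along the genes, the first 10% of the span held 16 of 111 sites (14.4%, 95% Wilson interval 9.07% to 22.1%), against 4.48% of the 87821 sites in protein-coding genes that had 5 sites or more. Of these 16 sites, 12 were in UPF3A and 4 in UPF3B. Without UPF3A the share was 4.82% (1.89% to 11.7%). The last 10% also held 16 sites (14.4%, 9.07% to 22.1%), and 9 of these were in SMG5, 2 each in UPF1, UPF2 and SMG6, and 1 in UPF3A. Limited to the members that had 5 sites or more, as in the comparison genes, the share was 12.96% (7.88% to 20.6%), against 13.4%. The last 20% held 18.9% of the 111 sites (12.7% to 27.2%), against 27.1%. The 5′ part of the span up to its midpoint held 42.3% of sites (33.6% to 51.6%), against 36.4%, and 25.3% (17.2% to 35.6%) without UPF3A.

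**Figure D4:**
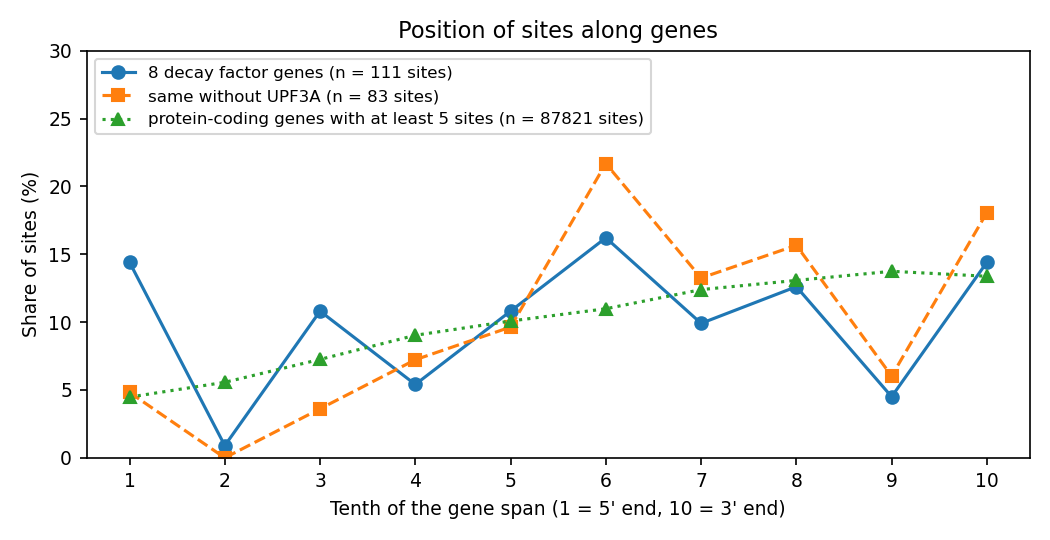
Share of sites in each of 10 equal parts of the gene span, from the 5′ end (1) to the 3′ end (10), for the 8 genes together, the same genes without UPF3A, and protein-coding genes having 5 sites or more. The share in the first part is 14.4% with UPF3A and 4.82% without it, against 4.48% in the comparison genes.

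Other genes of the decay pathway, 24 in number, were counted in the same way. A site was present in 23 of them and 5 sites or more in 21, where 37.9% and 23.1% of protein-coding genes had as many. Their median was 13 sites and 0.466 sites per kb, compared with 12.5 sites and 0.177 sites per kb in the 8 factor genes. The list was described by counts only, and the difference was not tested. Strands of 6 of these genes were not in the promoter table, and the strand with more sites was used for them.

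Among the kinase and helicase partners of UPF1, NBAS, which also acts in membrane traffic, had 186 sites in 782.4 kb. SMG1, the kinase that phosphorylates UPF1, had 77 sites (0.634 per kb). DHX34, a helicase that interacts with UPF1, had 0 sites, which allows up to 0.0898 sites per kb by the limit of 3 counts. Within the SMG1 complex, SMG1 thus had 77 sites, SMG9 5 and SMG8 0. Of the exon junction complex genes, all 6 had a site, where 37.9% of protein-coding genes did. Their counts ranged from 4 in MAGOH to 27 in RNPS1, a splicing regulator associated with the complex.

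All 5 genes of cap binding, tail binding and translation termination had at least 5 sites, where 23.1% of protein-coding genes had as many. PABPC1, the cytoplasmic poly(A)-binding protein, had the most, 58, and the highest density in the list, 3.03 per kb (2.30 to 3.91). NCBP2, the small subunit of the nuclear cap-binding complex, had the fewest, 9. The 8 genes of RNA decay ranged from 5 sites in CNOT7, a deadenylase of the CCR4-NOT complex, to 126 in CNOT1, the scaffold of that complex. The density of UPF3A was close to that of CNOT1 (1.15 per kb), and the interval of SMG6 lay below that of every one of these 24 genes with a site except RUVBL1, an ATPase partner of SMG1.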

How the data were processed

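The data were 1 deposited list of SF3B1 binding sites in BED form. Merged sites of 5 nt that all replicates of either condition reproduced make up the list, per the file headers. The score deposited by the authors was 0 throughout and was not used. The submitters' processing notes name STAR 2.7.3a and 2.6.1b, UMI-tools 1.0.0, bedtools 2.27.1 and FastQC 0.11.8, and the builds GRCh38.p10 and GRCh38.p12. The site caller is not given in the sources used here.

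Positions were made 1-based, and a site was placed by its centre. Gene spans came from RefSeq GRCh38.p14, a later patch of the same assembly, and strands from the RefSeq promoter table, or from the strand with more sites where a gene was not in it (15843 of 20056 protein-coding genes were). Every gene containing a site was counted. Length classes are 10 equal groups of protein-coding genes. All 8 genes are named by the rule. Of the other pathway genes, those with the most and fewest sites per role were named, with SMG1 and RUVBL1 added after their values were seen, as was LOC124903222 by its overlap. The members, lists and spans were chosen with earlier results of these data known. One gene of the planned pathway list is not reported here.

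No test was made, since the list merges replicates. Planned counts by intron and 3′ splice site needed exons, which were not used here. Gene assignment and counts of near pairs were tested on simulated data (1000 of 1000 genes recovered). Each simulated gene held at most a single pair of sites, 36 nt apart. Gene assignment was also tested by direct search of the listed sites (300 of 300). Larger clusters, the other distance bands and genes without a strand in the promoter table were not covered by the simulation. The work was done in Python 3.11.15 with SciPy 1.17.1, NumPy 2.4.6, pandas 2.3.3 and Matplotlib 3.10.9.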

Additional observations from a re-analysis of the deposited data

How the results depend on the processing

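In 110 recalculations of 29 values, 3 of them chosen after seeing the data, counts of sites, clusters and genes stayed within 1.5 times and densities and shares within their 95% intervals. The share in the last 20% of the gene, 18.9%, is a different quantity from that in the last 10%, and its place within that interval shows nothing about stability. The same holds for the 21 other pathway genes with at least 5 sites, set against 23 with a site. Densities are counts divided by fixed gene lengths, so their recalculations add nothing to those of the counts. The ratio of near to far pairs was judged by the share of near pairs, which stayed within its interval, although the ratio itself moved by more than 1.5 times without UPF3A. The total of 111 sites ranged from 104 (1 site per region number) to 112 (sites on either strand). Site pairs spaced by 25 to 45 nt outnumbered those spaced by 46 to 66 nt by a ratio of 10.3, and by 14 with touching sites merged, 12 with 1 site per region number and 19 without UPF3A, from only 1 to 3 pairs in the farther band. The region number, a running number of the list that neighbouring sites can share, skipped 6 values between the first and last sites of these genes. Replicates could not be left out, and no paired analysis was possible because replicates were merged before deposit and have no columns. The alternatives that need exons were not run.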
